A study of Mus musculus with 2 samples.

Results

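Macrophages and their relatives in the retina and brain, the microglia, are the resident phagocytes of most tissues. The genes C1qa, C1qb, C1qc, Tyrobp, Fcer1g, Lyz2, Cd68, Cd14, Csf1r and Laptm5 are widely used to mark them. These 10 genes were looked up by symbol among the 21673 genes of the deposited table, and all 10 were found there. They were chosen with their values in this comparison known, so the difference between the libraries describes them and supports nothing further. The lens samples were C57BL/6 at postnatal day 60. The first library, called CKO here, came from Le-Cre+/- Msx2 fl/fl mice, and the second, called WT here, from Msx2 fl/fl mice that lacked Cre. The floxed Msx2 alleles were therefore common to both libraries, whereas Cre and the loss of Msx2 went together and cannot be told apart. Le-Cre is active in the surface ectoderm that forms the lens, cornea and conjunctiva, a lineage that does not give rise to macrophages. The sources used here do not say how many animals went into a library.

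A healthy lens is enclosed in its capsule, has no blood vessels and holds few or no immune cells, whereas the neighbouring retina, iris and ciliary body contain microglia and macrophages. C1q, built from the products of C1qa, C1qb and C1qc, is the recognition unit of the classical complement pathway and is made mainly by macrophages and microglia. Tyrobp and Fcer1g encode small membrane adaptors that carry an immunoreceptor tyrosine-based activation motif (ITAM) and signal for receptors that lack one. Csf1r encodes the receptor on whose signal most macrophages depend for survival, Cd14 a co-receptor for bacterial lipopolysaccharide, Lyz2 a secreted lysozyme, and Cd68 and Laptm5 proteins of the lysosomal membrane.

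Neither genotype was replicated, so the differences below are between 2 single libraries, without a replicate check and without p-values. Reads assigned to genes totalled 17165504 in CKO and 20784737 in WT. Msx2 itself had 3 reads in CKO and 311 in WT. The 2 libraries also differed in sex-linked RNA, with 16251 and 35 reads of Xist and 1 and 729 reads of the Y-linked gene Ddx3y. This sex-linked difference went together with genotype, so sex and genotype cannot be told apart in any ratio below. Crystallin genes made up 40.1% of the CKO reads and 61.6% of the WT reads. The levels are FPKM (reads per gene length and effective library size, as deposited), and every interval is an exact 95% interval that covers counting error only. In bulk tissue, more cells of a type and more RNA per cell cannot be told apart.

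Promoter sequence is shown for Cd68 and C1qb, which had the largest ratios. It is also shown for Fcer1g, the only gene of the 10 with a ratio below 1 on the deposited scaling. RefSeq promoter entries on GRCm38.p6 were matched for 6 of the 10 genes, namely C1qb, C1qc, Fcer1g, Laptm5, Lyz2 and Cd68. The runs below are the 250 bases before the RefSeq start on the gene's own strand, with the letters GAGGAA or their reverse complement in capitals. GAGGAA is the core of sites bound by PU.1, the transcription factor encoded by Spi1 that directs macrophage development.
C1qb: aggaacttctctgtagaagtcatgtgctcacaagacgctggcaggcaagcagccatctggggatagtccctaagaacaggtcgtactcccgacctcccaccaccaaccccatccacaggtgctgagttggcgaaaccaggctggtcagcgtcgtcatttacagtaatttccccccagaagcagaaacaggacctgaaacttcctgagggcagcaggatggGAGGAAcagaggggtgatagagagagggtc
Cd68: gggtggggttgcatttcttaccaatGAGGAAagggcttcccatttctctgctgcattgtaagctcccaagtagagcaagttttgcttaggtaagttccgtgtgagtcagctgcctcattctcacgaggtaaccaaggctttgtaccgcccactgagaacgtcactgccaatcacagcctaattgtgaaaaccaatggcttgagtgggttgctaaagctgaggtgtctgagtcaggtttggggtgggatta
Fcer1g: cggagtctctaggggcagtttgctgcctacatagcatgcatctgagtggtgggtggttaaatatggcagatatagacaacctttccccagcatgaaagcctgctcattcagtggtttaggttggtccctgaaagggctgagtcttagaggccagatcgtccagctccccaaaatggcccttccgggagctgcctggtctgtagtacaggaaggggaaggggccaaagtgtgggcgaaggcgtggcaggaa
The C1qb run is chr4:136886201-136886450, the Cd68 run chr11:69666171-69666420 and the Fcer1g run chr1:171234350-171234599, all on the minus strand. The core begins 30 bases before the start of C1qb and 225 bases before that of Cd68, and these letters are not in the Fcer1g window. Of the 6 promoters 4 held the core, those of C1qb, Cd68, C1qc and Laptm5, against 23.3% of 32851 mouse promoter windows of the same length. Those of Fcer1g and Lyz2 did not hold it, and Lyz2 was 4.65-fold higher in CKO. The windows of Fcer1g, C1qc (136892915 to 136893164), Lyz2 (117282273 to 117282522) and Laptm5 (130913066 to 130913315) each overlap the gene as listed. On the minus strand, the listed Fcer1g, C1qc and Lyz2 begin at 171234365, 136893065 and 117282274. Laptm5 as listed begins at 130913125 on the plus strand. The core in its window, 38 bases before the RefSeq start, lies inside the listed gene. The AP-1 motif TGAGTCA was found in 1 of the 6, that of Cd68, which held it at 149 and at 24 bases before the start, against 4.46% of all windows. The C/EBP motif TTGCNNAA was found in 1, again that of Cd68 (43 bases before the start), against 9.56%. The interferon-stimulated response element, searched as 2 copies of GAAA with 2 bases between them, was found in none of the 6, against 2.98%. All motifs were searched on both strands, and a match is a run of letters, not evidence of binding.

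The 3 chains of C1q were all higher in the CKO library, by 4- to 6-fold. C1qa (ENSMUSG00000036887), the A chain, stood at 8.56 FPKM in CKO (7.43 to 9.80) and 1.70 FPKM in WT (1.12 to 2.47), from 208 and 27 reads, 5.03-fold higher (3.36 to 7.82). C1qb (ENSMUSG00000036905), the B chain, stood at 5.90 FPKM (4.99 to 6.92) and 0.963 FPKM (0.551 to 1.56), from 150 and 16 reads, 6.12-fold higher (3.65 to 10.99). C1qc (ENSMUSG00000036896), the C chain, stood at 3.01 FPKM (2.53 to 3.56) and 0.746 FPKM (0.468 to 1.13), from 136 and 22 reads, 4.04-fold higher (2.56 to 6.66). For each chain the CKO interval lay wholly above the WT interval. The counting intervals of the 3 ratios overlap, so the chains were not separated from each other at this depth. Their summed reads were 494 and 65, 4.97-fold higher (3.83 to 6.53). Per length, C1qa made up 49.0% of the summed C1q FPKM in CKO and 49.9% in WT, C1qb 33.8% and 28.2%, and C1qc 17.2% and 21.9%. The genes lie side by side on the minus strand of chromosome 4, C1qb from 136880129 to 136886187, C1qc from 136889804 to 136893065 and C1qa from 136895917 to 136898803 on GRCm38, each with 3 exons.

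For the 2 ITAM adaptors the counting intervals of the ratio included 1. Tyrobp (also known as DAP12), which serves TREM2 and other receptors, stood at 1.28 FPKM in CKO (0.784 to 1.98) and 0.589 FPKM in WT (0.216 to 1.28), from 20 and 6 reads. Its ratio was 2.18 (0.843 to 6.63), and the intervals of its 2 levels overlapped. Fcer1g, the common gamma chain of the high-affinity IgE receptor and of activating Fc-gamma receptors, stood at 0.979 FPKM (0.598 to 1.51) and 1.20 FPKM (0.685 to 1.95), from 20 and 16 reads, a ratio of 0.817 (0.402 to 1.69). A difference in Fcer1g was not detectable at this depth, and it alone among the 10 had a ratio below 1 on the deposited scaling. On library totals alone its ratio was 1.51 (0.745 to 3.12), so its direction depends on the scaling. Together the 2 adaptors had 40 reads in CKO and 22 in WT, a ratio of 1.19 (0.689 to 2.10) on the deposited scaling and 2.20 (1.28 to 3.89) on library totals alone. The interval of Tyrobp also lay above 1 on library totals alone (4.04, 1.56 to 12.3). Tyrobp occupies bases 30413760 to 30417585 of chromosome 7 (plus strand) and Fcer1g bases 171229572 to 171234365 of chromosome 1 (minus strand), with up to 6 and 5 exons per transcript.

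Lysozyme and the lysosomal membrane genes were higher in CKO. Lyz2 (ENSMUSG00000069516) was the most abundant of the 10 genes in both libraries, at 9.63 FPKM in CKO (8.55 to 10.8) and 2.07 FPKM in WT (1.48 to 2.82), from 285 and 40 reads, 4.65-fold higher in CKO (3.33 to 6.65). Its paralogue Lyz1, a lysozyme of the small intestine, has no row in the table, and 15.4% of the 50-base runs of the Lyz2 transcript also occur in Lyz1, so reads from those stretches could not be assigned with certainty. Cd68, which encodes a heavily glycosylated protein of late endosomes and lysosomes, had the largest ratio of the 10. It stood at 3.40 FPKM (2.77 to 4.14) and 0.417 FPKM (0.180 to 0.821), from 100 and 8 reads, 8.17-fold higher (3.99 to 19.4). Laptm5, which in lymphocytes promotes lysosomal breakdown of antigen receptors, stood at 0.587 FPKM (0.439 to 0.770) and 0.173 FPKM (0.0829 to 0.318), from 52 and 10 reads, 3.40-fold higher (1.71 to 7.50). For all 3 genes the CKO interval lay above the WT interval. Cd68 and Laptm5 together were 5.52-fold higher (3.38 to 9.56). Lyz2 occupies bases 117277334 to 117282274 of chromosome 10 and Cd68 bases 69664213 to 69666153 of chromosome 11, both on the minus strand, and Laptm5 bases 130913125 to 130936141 of chromosome 4 on the plus strand.

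The receptor genes Csf1r and Cd14, both on chromosome 18, were low in both libraries and higher in CKO. Csf1r stood at 1.20 FPKM in CKO (1.01 to 1.42) and 0.456 FPKM in WT (0.316 to 0.637), from 137 and 34 reads, 2.63-fold higher (1.80 to 3.95). An antisense gene, Hmgxb3, shares 873 exonic bases with Csf1r and had 249 and 203 reads. The sources used here do not say whether counting used strand, so reads of the 2 genes cannot be told apart over that stretch. Cd14 had 15 reads in CKO and 2 in WT, or 0.408 FPKM (0.229 to 0.673) and 0.0833 FPKM (0.0101 to 0.301), intervals that overlap. Its ratio of 4.90 has an interval of 1.14 to 44.2, the widest of the 10.

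**Figure D1:**
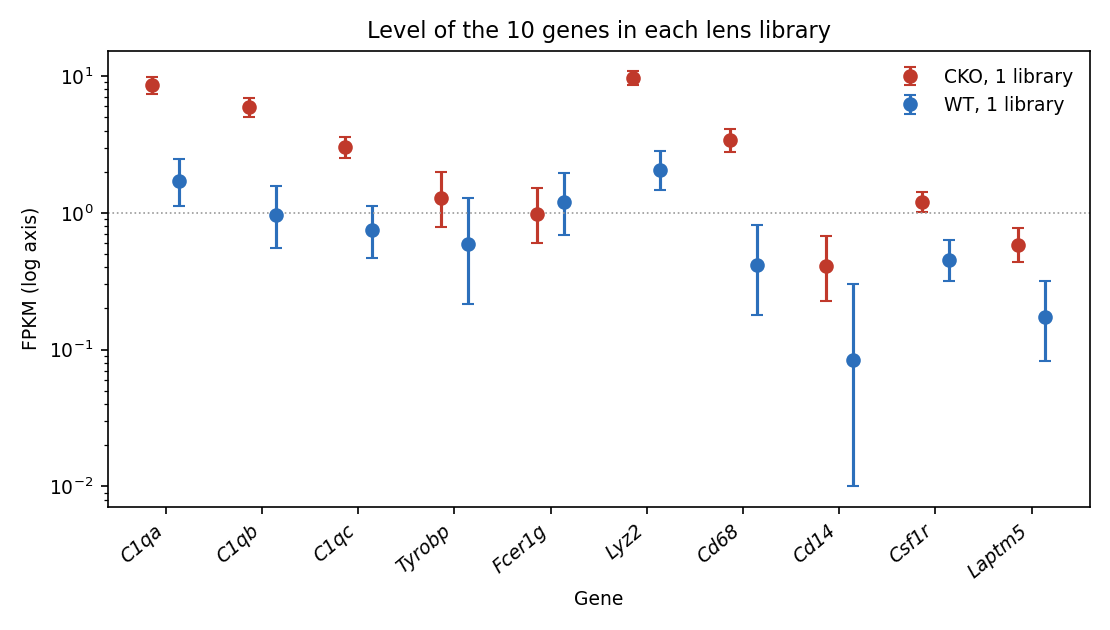
FPKM of each of the 10 genes (log axis) in the CKO library and the WT library, 1 point per library, with exact 95% counting intervals; the dotted line marks 1 FPKM. Fcer1g is the only gene whose WT point, at 1.20 FPKM, lies above its CKO point, at 0.979, and Cd14 has the longest WT interval, on 2 reads.

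Across the 10 genes, 9 had a ratio above 1, all of them of 2 or more, none had a ratio of 0.5 or less, and the median ratio was 4.35. The counting interval lay above 1 in 8 genes, and included 1 for Tyrobp and Fcer1g. Over all 16321 genes with 10 reads or more, the median ratio was 1.03, 17.7% were 2-fold or more higher, 6.2% were 2-fold or more lower, and the interval lay above 1 in 28.4%. Genes at low levels were more often higher in CKO. All 10 genes had between 17 and 325 reads over both libraries, and among the 9107 genes with 10 to 400 reads 27.1% were 2-fold or more higher, with a median ratio of 1.17. The lower limit of the interval exceeded 2 in 5 of the 10 (C1qa, C1qb, C1qc, Lyz2 and Cd68), against 9.03% of genes with 10 reads or more and 12.3% of those with 10 to 400. These shares are printed beside the counts for scale, because the genes were chosen on this contrast.

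By the size rule that the series' other genes were held to, a mean of 1 FPKM or more and a 2-fold ratio after adding 1 to each FPKM, 6 of the 10 were measured, 5 were higher and 0 lower, against 5.83% higher and 2.93% lower among the 10757 genes measured. The 5 were C1qa, C1qb, C1qc, Lyz2 and Cd68, with log2 ratios of 1.82, 1.81, 1.20, 1.79 and 1.64. All but C1qa and Lyz2 among them were below 1 FPKM in WT and reached the mean through the CKO library, so the 5 of 6 is not a share of all 10 genes. Fcer1g, at a mean of 1.09 FPKM, lay just inside the minimum with a log2 ratio of -0.15. Tyrobp, at 0.936 FPKM, lay just outside, followed by Csf1r at 0.828, Laptm5 at 0.380 and Cd14 at 0.246. The log2 ratios of these 4 were 0.52, 0.60, 0.44 and 0.38, which adding 1 FPKM holds close to 0. With no minimum level the same rule also counted 5 genes, against 3.69% of all 21673.

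**Figure D2:**
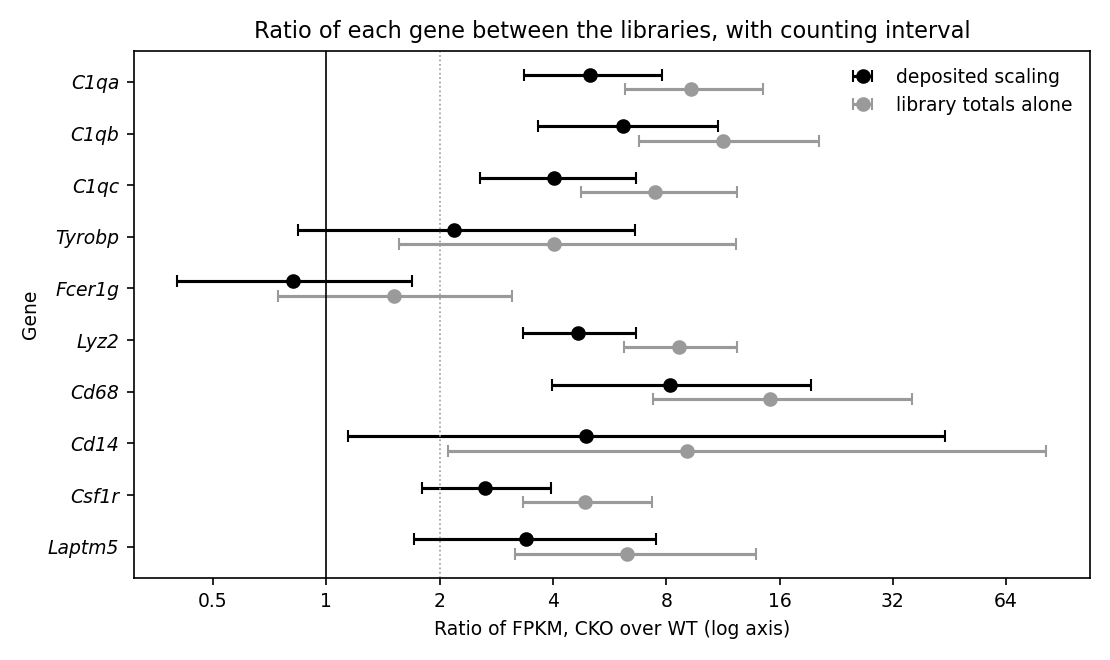
Ratio of FPKM in CKO over WT for each of the 10 genes (log axis), with exact 95% counting intervals, on the deposited scaling (black) and on library totals alone (grey); lines mark ratios of 1 and 2. On the deposited scaling the intervals of Tyrobp and Fcer1g cross 1, and library totals alone move every point up by the same factor of 1.85.

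The ratios of the 10 ran from 0.817 to 8.17. Of the 45 pairs of genes, 8 had counting intervals that did not overlap, and 7 of these involved Fcer1g, whose interval lay below those of C1qa, C1qb, C1qc, Lyz2, Cd68, Csf1r and Laptm5. The remaining pair was Cd68 and Csf1r. These intervals hold counting error only and were not corrected for the 45 pairs. The genes were also chosen on this contrast, so intervals that lie apart are no test that the ratios differ. Of all reads of the 10 genes, Fcer1g gave 1.78% in CKO (1.09 to 2.74) and 8.84% in WT (5.14 to 13.96), and it was the third by level in WT and the eighth in CKO. Cd68 gave 8.90% in the CKO library (7.30 to 10.7) and 4.42% in the WT library (1.93 to 8.52), and Csf1r 12.2% (10.3 to 14.3) and 18.8% (13.4 to 25.2), with intervals that overlap. Lyz2 alone gave 25.4% and 22.1% of the reads of the set. In CKO the order of levels was Lyz2, C1qa, C1qb, Cd68, C1qc, Tyrobp, Csf1r, Fcer1g, Laptm5 and Cd14. Intervals of neighbours in that order were apart between C1qa and C1qb, C1qb and Cd68, and C1qc and Tyrobp, and overlapped elsewhere. In WT the order was Lyz2, C1qa, Fcer1g, C1qb, C1qc, Tyrobp, Csf1r, Cd68, Laptm5 and Cd14, and the intervals of all 9 neighbouring pairs overlapped.

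The 10 genes were a minute part of either library. They had 1123 reads in CKO, 0.00654% of the library (0.00617 to 0.00694), and 181 in WT, 0.000871% (0.000749 to 0.00101). Their summed reads were 4.05-fold higher in CKO (3.46 to 4.77), and 3.88-fold higher without Lyz2. The size of this ratio depends on the scaling. On library totals alone the summed reads were 7.51-fold higher (6.42 to 8.84), and Cd68 and C1qb reached 15.1- and 11.4-fold. On totals without crystallins the summed ratio was 4.81. By level, C1qa exceeded 87.1% of all listed genes in CKO and 60.8% in WT, Lyz2 88.4% and 64.1%, and Fcer1g 49.1% and 55.3%.

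**Figure D3:**
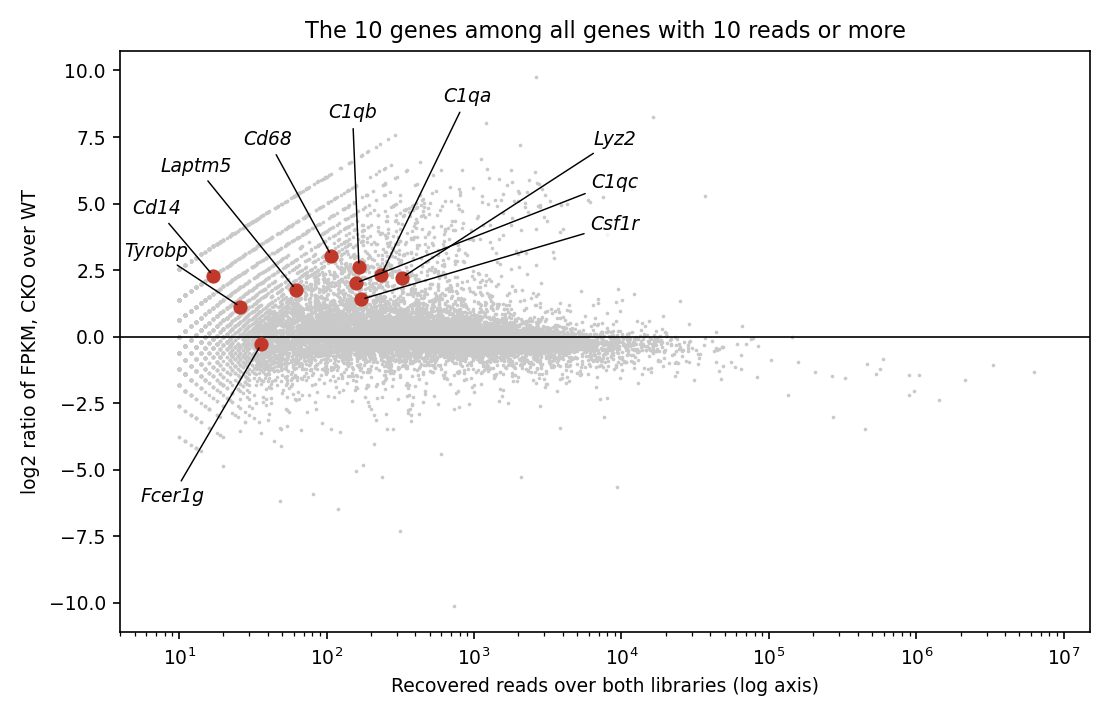
log2 ratio of FPKM in CKO over WT against the recovered reads over both libraries (log axis) for genes with 10 reads or more and reads in both libraries (grey), with the 10 marker genes in red. The markers sit at the low end, from 17 to 325 reads, where the grey points spread most widely.

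Several of the markers differed from the genes beside them on the chromosome. The nearest protein-coding genes on either side with a mean of 1 FPKM or more were taken. Cd68 lies 783 bases from Eif4a1, which encodes a translation initiation factor and was at 38.0 and 53.9 FPKM, and 1571 bases from Mpdu1, at 11.3 and 9.69 FPKM. Their ratios were 0.704 and 1.17, against 8.17 for Cd68. Tomm40l, on one side of Fcer1g, had a ratio of 0.711, inside the interval of Fcer1g itself. The neighbours of Tyrobp were Alkbh6 and Aplp1, with ratios of 0.934 and 1.46, both inside the interval of Tyrobp. Beside Cd14, Tmco6 had a ratio of 2.03, inside the interval of Cd14, and Slc35a4 one of 1.02, below it. The neighbours of Lyz2 were Yeats4 and Cpsf6, with ratios of 1.06 and 0.881. Pdgfrb, the receptor gene that precedes Csf1r, had a ratio of 0.550, and the rod phosphodiesterase gene Pde6a on its other side one of 30.5. Around the C1q genes, Cdc42, 420893 bases away, had a ratio of 1.07, and Lactbl1, 241019 bases away, had 247 and 3 reads. The neighbours of Laptm5 were Sdc3, 86806 bases away with a ratio of 1.24, and Ptpru, 832316 bases away with one of 0.527.

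**Figure D4:**
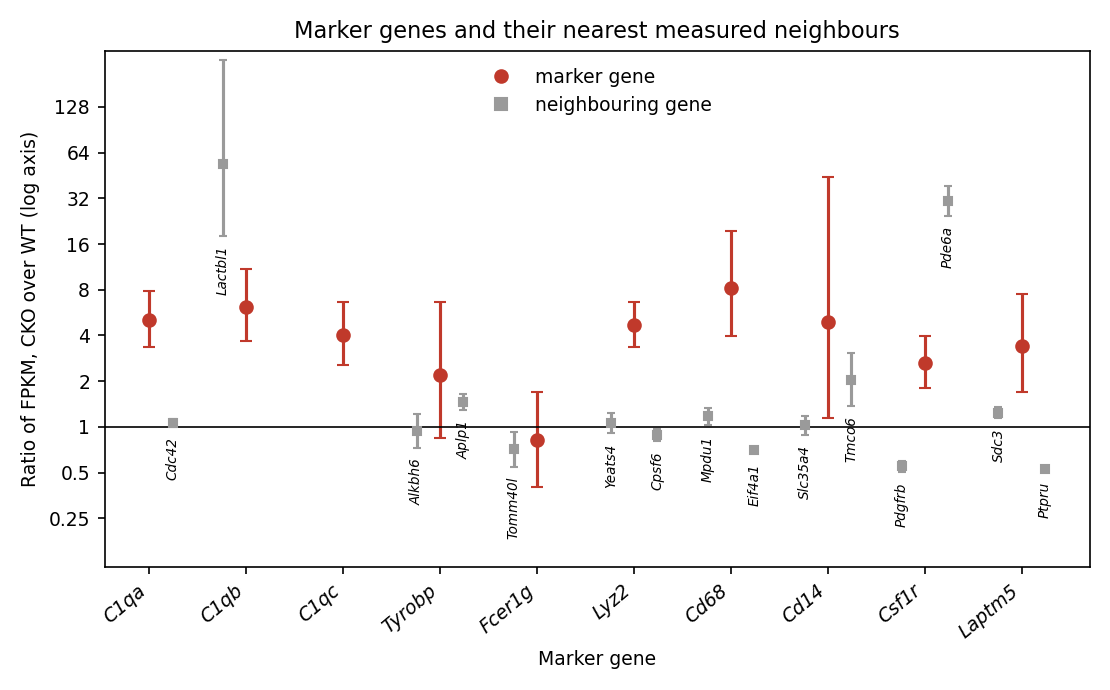
Ratio of FPKM in CKO over WT (log axis) for each marker gene (red circles) and its nearest measured protein-coding neighbours before and after it (grey squares, named), 1 of them not shown, with exact 95% counting intervals. Lactbl1 and Pde6a, at 53.8 and 30.5, lie far above the markers beside them, and Pdgfrb and Ptpru, at 0.550 and 0.527, are the lowest. Ptpru lies 832316 bases from Laptm5.

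Other genes that define macrophages and leukocytes were low in both libraries, and several differed less than C1q. None of 11 such genes reached a mean of 1 FPKM. Ptprc, which encodes the leukocyte antigen CD45, had 13 reads in CKO and 7 in WT, a ratio of 1.21 (0.450 to 3.59). Adgre1, which encodes F4/80, had 19 and 7 reads, Itgam (CD11b) 10 and 3, and Spi1 14 and 4. The fractalkine receptor gene Cx3cr1 had 56 and 21 reads, a ratio of 1.74 (1.04 to 3.03) whose interval lay below those of C1qa, C1qb, Lyz2 and Cd68. The tissue macrophage scavenger receptor gene Cd163 had 96 and 56 reads, a ratio of 1.12 (0.797 to 1.59), and the mannose receptor gene Mrc1 had 41 and 26, a ratio of 1.03 (0.615 to 1.75). The intervals of Cd163 and Mrc1 both lay below those of C1qa, C1qb, C1qc, Lyz2, Cd68 and Csf1r. Larger ratios came from genes with 1 or 2 WT reads. Trem2, the lipid-sensing receptor that signals through Tyrobp, had 33 and 1 reads, a ratio of 21.6 (3.61 to 877). Aif1, which encodes IBA1, had 19 and 1 (12.4, 1.97 to 516), and the microglial gene Tmem119 had 21 and 2 (6.86, 1.68 to 60.3). P2ry12, a receptor of resting microglia, had 11 and 5 reads. The 11 genes together had 333 and 133 reads, 1.64-fold higher (1.33 to 2.02), and most of these reads came from Cd163, Cx3cr1 and Mrc1. The summed interval of the 10 markers was 3.46 to 4.77, but the markers were chosen on this contrast. Intervals below those of the markers are therefore no test of a difference from them.

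The wider lists of macrophage genes were also mostly too low to be measured. Beside the counts of this and later lists, 5.83% of all 10757 measured genes were higher and 2.93% lower. By the plain ratio, 17.7% of genes with 10 reads or more were 2-fold or more higher. A gene below 1 FPKM in WT, such as Ctss or Gpnmb, can be measured through the CKO library alone, which favours a call of higher. Of 25 further macrophage genes 4 were measured and 1 was higher, Ctss, which encodes the lysosomal protease cathepsin S, at 6.24 and 0.675 FPKM (9.24-fold, 5.38 to 17.2). By the plain ratio, 16 of the 22 with 10 reads or more were 2-fold or more higher and none was lower. Of 12 genes of resting microglia 2 were measured, Sall1 at 8.73 and 16.9 FPKM and Olfml3 at 4.45 and 14.0. Olfml3 was lower by the size rule, and its 641 and 1321 reads are more than those of any of the 10 markers. Tmem119 and P2ry12, of the same list, had 21 and 2 and 11 and 5 reads. Which cells gave the Sall1 and Olfml3 reads was not tested, so their levels cannot be read as those of microglia. By the plain ratio, 3 of 9 resting microglia genes with 10 reads or more were 2-fold or more higher and 1 was lower. Their median ratio was 1.63. Of 11 listed genes of perivascular and other tissue macrophages 2 were measured and neither passed. By the plain ratio, 2 of the 9 with 10 reads or more were 2-fold or more higher and none was lower, with a median of 1.63. Of 18 genes of activated microglia 11 were measured, 5 higher and 1 lower. By the plain ratio, 11 of the 17 with 10 reads or more were 2-fold or more higher and 1 was lower, with a median of 2.40. The highest log2 ratio was that of Gpnmb, a lysosomal glycoprotein gene, at 11.4 and 0.623 FPKM (18.2-fold, 14.1 to 23.9), and Axl, a receptor for dying cells, was 5.84-fold higher (4.35 to 7.99). Apoe, which encodes apolipoprotein E and is also made by glia, was at 399 and 156 FPKM. Summed reads, which follow the most abundant genes of a list, gave other ratios than the medians. The summed ratio was 1.24 (1.14 to 1.35) for the 25 further macrophage genes and 0.445 (0.419 to 0.472) for resting microglia. It was 0.752 (0.686 to 0.825) for perivascular and other tissue macrophages and 0.568 (0.564 to 0.572) for activated microglia.

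Among genes that act with the 10 markers, the number past the size rule varied from list to list. Of 29 other complement genes 8 were measured, 3 higher and none lower. C3, the central component, stood at 23.0 and 0.739 FPKM (31.1-fold, 24.0 to 41.1), C4b at 29.0 and 1.77 (16.3-fold, 13.9 to 19.3), and the C1 inhibitor gene Serping1 at 22.1 and 5.92 (3.74-fold, 3.23 to 4.35). The proteases that C1q activates are encoded by C1ra, with 110 and 17 reads, and C1s1, with 32 and 15. Of 20 receptors that pair with Tyrobp or Fcer1g, 12 were listed and none was measured, with 101 and 23 reads in all. Of 23 genes of ITAM signalling 4 were measured and none passed, and Syk, the kinase that docks on the motif, had 10 and 7 reads. The 2 ligands of Csf1r were low. Csf1 was at 1.47 and 0.633 FPKM (2.32-fold, 1.69 to 3.23) and Il34 at 1.29 and 0.435 (2.96-fold, 1.61 to 5.89). With regulators of macrophage identity they made a list of 21, of which 9 were measured and 1 was higher, Klf4, which epithelia also express.

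Of 38 genes of the Cd14 and Toll-like receptor pathway 16 were measured, 4 higher and none lower. The signalling receptor gene Tlr4 had 13 and 15 reads. The higher genes were the targets Lcn2, 149-fold (78.2 to 326), Ccl2, 10.5-fold (5.19 to 24.9), Tnfaip3, 10.3-fold (7.06 to 15.5), and Nfkbia, 2.30-fold (1.84 to 2.91). Of 36 lysosomal genes all were measured, and 3 were higher and 33 did not pass the size rule, with a median log2 ratio of 0.06 against -0.02 for all measured genes. The 3 were Ctss, Atp6v0d2 (178 reads in CKO and 0 in WT) and Ctsh (2.97-fold, 2.32 to 3.85). Of 27 genes for the clearance of dying cells 18 were measured, 2 higher and 1 lower, the bridging protein gene Pros1 (4.27-fold lower, 3.70 to 4.93). Of 27 chemokine genes and receptors 6 were measured and 5 were higher, against 5.83% of all measured genes. Genes low in WT could enter this count through the CKO library alone. The monocyte attractants Ccl7 and Ccl2 were 26.8-fold (13.4 to 62.6) and 10.5-fold higher. Of 9 class II antigen presentation genes 3 were measured, with Cd74 and H2-Ab1 8.28- and 9.54-fold higher and H2-Eb1 4.83-fold lower (2.54 to 9.82).

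**Figure D5:**
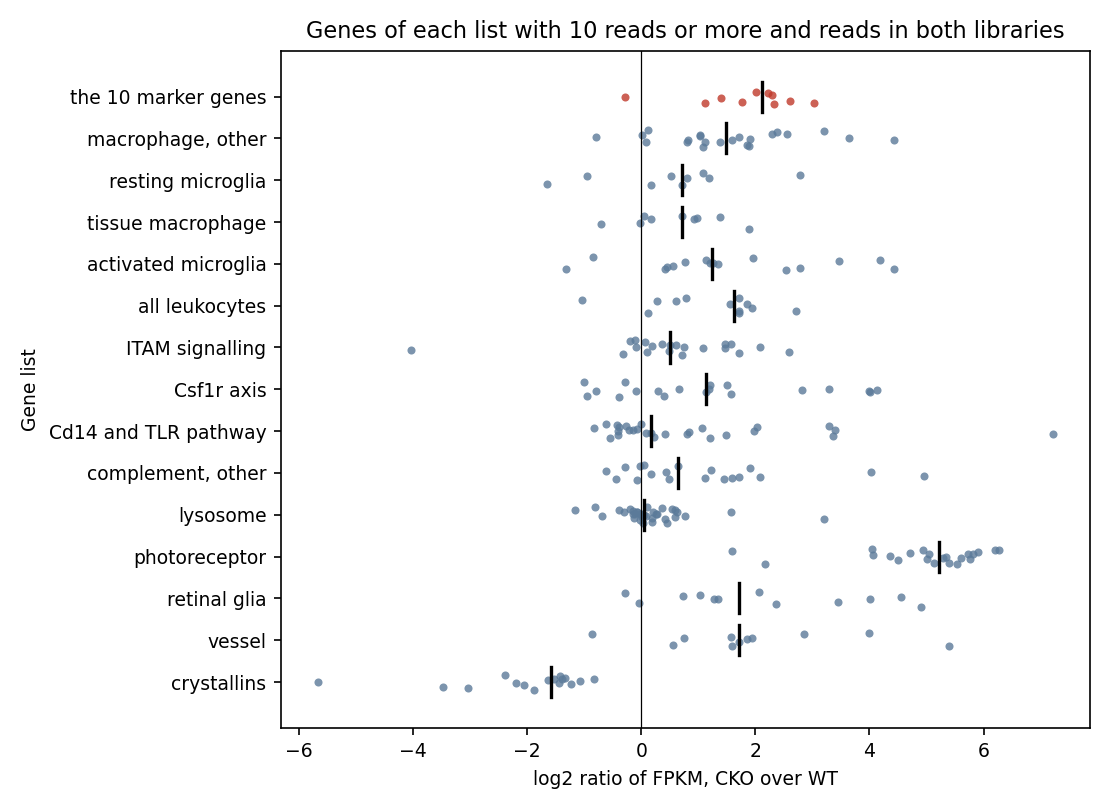
log2 ratio of FPKM in CKO over WT for genes of each list with 10 reads or more and reads in both libraries (1 point per gene, marker genes in red, others in blue), with the median of the points shown as a bar. Lysosomal genes cluster at 0, most photoreceptor genes lie above all the markers, and crystallins lie below 0.

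The lists for other leukocytes had few measured genes. Of 16 general leukocyte genes other than Laptm5, 15 were listed and none was measured, and their summed reads of 305 and 88 were 2.26-fold higher in CKO (1.78 to 2.90). Of 15 neutrophil genes 9 were listed, with 60 and 84 reads in all, a summed ratio of 0.467 (0.329 to 0.658). S100a8, Elane, Mpo, Ngp and Camp had 0 reads in CKO. The defining T cell genes Cd3d, Cd3e and Cd3g had no row. Of 10 T cell genes 5 were listed, with 23 and 7 reads and a summed ratio of 2.15 (0.892 to 5.92). The 1 B cell gene listed of 8, Jchain, had 83 and 5 reads, a ratio of 10.8 (4.47 to 34.3). Of 8 natural killer genes 2 were listed, with 12 and 33 reads and a summed ratio of 0.238 (0.112 to 0.472). For mast cells 2 of 8 genes were listed, with 54 and 41 reads and a summed ratio of 0.860 (0.563 to 1.32). For dendritic cells 6 of 9 were listed, with 100 and 72 reads and a summed ratio of 0.907 (0.664 to 1.25). The 10 monocyte genes had 1238 and 1056 reads in all, a summed ratio of 0.766 (0.705 to 0.832). Over the 6 of them with 10 reads or more the median ratio was 1.72. Of the 10, 4 were measured, 1 higher and 1 lower. The defining genes Ly6c2 and Ccr2 had 0 and 5 reads in CKO and 5 and 1 in WT.

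Photoreceptor RNA differed between the libraries more than the summed RNA of the 10 genes did. Of 22 photoreceptor genes 21 were measured and all 21 were higher. The summed reads of the 22, 99809 and 3747, were 17.4-fold higher in CKO (16.8 to 18.0), beside 3.46 to 4.77 for the 10 markers. Both sets were chosen with earlier results of these data known, so this is no test of a difference between them. Of 12 genes of retinal glia 11 were measured, 7 higher and none lower, with a median ratio of 3.36 over the 12 and a summed ratio of 1.13 (1.12 to 1.14). For the other tissues the summed ratio and the median over genes with 10 reads or more often differed. Of 12 vessel genes 3 were measured and 1 was higher, Kdr, with a summed ratio over the list of 1.05 (0.984 to 1.13). By the plain ratio, 8 of the 11 vessel genes with 10 reads or more were 2-fold or more higher and none was lower, with a median of 3.27. Pigmented and ciliary epithelium had 6 of 12 genes measured, 0 higher and 2 lower, and a summed ratio of 0.436 (0.402 to 0.474). The ocular surface list had 4 of 10 genes measured, 2 of them higher, and a summed ratio of 1.63 (1.58 to 1.68). Neither fibroblast genes, with a summed ratio of 1.03 (0.988 to 1.08), nor red cell genes, with 0.820 (0.733 to 0.916), had a member past the size rule. By the plain ratio, 3 of 6 fibroblast genes and 2 of 3 red cell genes with 10 reads or more were 2-fold or more higher and none was lower, with medians of 10.7 and 14.4. Among lens genes, 15 of 16 crystallins were lower, and of 10 lens epithelial genes 2 were higher and 2 lower. The part of these tissues in the ratios of the 10 markers was not tested.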

How the data were processed

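Lens mRNA was sequenced in 2 libraries, 1 per genotype. The deposited table gives FPKM per gene for each library, with gene length and coordinates. The unit was inferred from the values, since each value multiplied by its gene length is a whole multiple of 1 step per library, and dividing by that step gave whole reads, within 0.001, for 100% of the deposited values. Tools named without a role, per the submitters' processing notes, were STAR 2.5.1b, then HTSeq 0.6.0, and also DESeq2 1.10.1. Build and annotation were not given in the sources used here. Gene identifiers were found in GENCODE M21 on GRCm38 for 99.5% of rows, and coordinates are those of the table on that build. The deposited scaling corresponds to effective libraries of 1.36 and 0.735 times the recovered totals, the factors that a trimmed mean of M-values gave here.

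Ratios are CKO over WT. Plain ratios carry exact conditional binomial (Clopper-Pearson) 95% intervals on recovered reads, single levels exact Poisson intervals, and shares exact binomial intervals. They cover counting error only, and reads are not independent molecules. No test was run, because each genotype has 1 library. The size rule was a log2 ratio of 1 or more in size after adding 1 FPKM, in genes with a mean of 1 FPKM or more. Alternatives were a pseudocount of 0.1, library totals alone, totals without crystallins, median-of-ratios scaling, no minimum, a minimum of 10 reads, and, chosen after seeing the data, the plain ratio with 10 reads or more. Non-member genes named are the 4 highest and 2 lowest measured genes of a list, or genes set down as defining a cell type or pathway; C1ra, C1s1, Jchain, Ngp, Camp, Elane, Mpo, Cd3d, Cd3g, Ddx3y and the neighbouring genes were named after their values were seen or from their position. The 10 genes and all lists were chosen with earlier results of these data known. Promoters are from RefSeq on GRCm38.p6. Calculations used Python 3.11.15, numpy 2.4.6, scipy 1.17.1, pandas 2.3.3 and matplotlib 3.10.9, and were tested on simulated data. Results for 2 genes are not reported here.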

Additional observations from a re-analysis of the deposited data

How the results depend on the processing

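The count of 5 marker genes past the size rule held under a pseudocount of 0.1, all 3 other scalings, no minimum level and a minimum of 10 reads. The share of all genes that were higher did not hold. It was 5.83% by the main rule, 8.14% with the smaller pseudocount and 20.3% on library totals. Leaving crystallins out of the totals gave 10.5%, and the median-of-ratios factors 5.78%. It was 3.69% with no minimum and 4.56% with 10 reads or more. The unchanged 5 therefore stood against a changing background. By the plain ratio with 10 reads or more, a rule chosen after seeing the data, the count was 9. The median log2 ratio of the 10 was 0.90 by the main rule and 2.12 by the plain ratio. Under library totals alone, which moved the median of all measured genes by 0.70, 96.8% of all genes past the rule were higher, against 66.6% on the deposited scaling, and 80.1% under totals without crystallins. The genes of the other lists that were higher numbered 56 by the main rule, 86 on library totals and 150 by the plain ratio. Those that were lower numbered 24, 7 and 34 in the same order. Among all genes tested, 5.83%, 20.3% and 17.7% were higher in these settings. The plain ratio also took in list genes below the main minimum, so its counts have a larger base. The share of reads taken by the 10 markers was 0.0109% in CKO and 0.00227% in WT with crystallin reads left out of the total, and 0.00488% and 0.000678% without Lyz2. Their summed ratio was 7.51 on library totals and 4.81 once crystallins were left out of them. No paired analysis was possible because each genotype has 1 library, and for the same reason no library could be left out. Depth limits every ratio, since each of Cd14, Tyrobp, Cd68 and Laptm5 had 10 reads or fewer in WT.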

Other observations

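Several genes linked to phagocytes had reads in 1 library and almost none in the other, and were picked out after their values were seen. Spp1, which encodes osteopontin, had 37 reads in CKO and 0 in WT, a ratio whose counting interval has a lower limit of 6.23 and no upper limit. Atp6v0d2, a subunit of the vacuolar proton pump found in osteoclasts and macrophages, had 178 and 0 reads, with a lower limit of 31.2. Chil3, a chitinase-like gene of mouse macrophages, had 129 and 5 reads, 16.9-fold higher (7.04 to 52.8). Other genes ran the opposite way. Pik3cg, the leukocyte phosphoinositide 3-kinase gamma, was 16.3-fold lower in CKO (10.1 to 28.1), with 18 reads there against 192. Plac8, a gene of blood monocytes and other myeloid cells, had 0 reads in CKO and 16 in WT, and the granule protease gene Elane had 0 and 12.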
